A study of Nannochloropsis oceanica with 36 samples.

Results

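The late course of the nitrogen-replete culture of Nannochloropsis oceanica, strain IMET1, was described from 6 of the 36 mRNA-seq libraries of the series: 3 biological replicates taken 24 h and 3 taken 48 h after transfer to nitrogen-replete medium. These 6 libraries were chosen by their labels alone, as the control group (N+) at both times. Cells in mid-logarithmic growth had been washed with seawater and moved in equal numbers to nitrogen-replete or nitrogen-deprived (N-) medium, and both media were bubbled with CO2-enriched air under continuous light. The 6 deprived libraries of 24 and 48 h, which differ from the replete ones in the medium only, served for comparison, and the other times gave the earlier course. All cultures of the series share the wash, the transfer and the light, so no library shows untransferred cells.

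Nannochloropsis is a genus of small unicellular marine algae (eustigmatophytes) known for storing triacylglycerol when nitrogen runs short. In replete medium cells can go on making protein, pigments and membranes, and a batch culture changes as cells divide and draw down the medium. The replete culture is the reference for each deprived sample, so its own change with time enters every comparison of the media at 24 and 48 h. No cell counts or nutrient measurements were used here, and in RNA from whole cultures a shift in the makeup of the cells and a shift in RNA per cell cannot be told apart.

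Levels of 9756 gene models were given as FPKM, which corrects fragment numbers for the length of a transcript and for sequencing depth. The sum of FPKM was 567006 to 629498 in the 24 h and 557295 to 592047 in the 48 h libraries. Total fragment numbers were not analysed here, and relative depth was fitted from the steps of low FPKM values. With 24 h replicate 1 set to 1, the other replete libraries of 24 and 48 h came out between 0.341 and 0.535. These depths are uncertain, since the score of the scale chosen in the first pass of the fit was only 1.02 to 1.19 times that of the next candidate. Between replicates, Pearson's r over genes (not independent of each other) was 0.992 to 0.993 at 24 h and 0.993 to 0.995 at 48 h. The 6 libraries of 12 h, in both media, stood apart from all others, at 96.9 to 102.1 on the leading principal component, which held 53.1% of the variance. The replete libraries lay at 0.4 to 4.1 at 24 h, at -18.7 to -13.1 at 48 h and at -27.0 to -11.3 at 6 h. The libraries of 48 h thus lay within the range of the 6 h libraries on this component, and those of 24 h between them and the 12 h libraries. On the next component (20.6% of the variance) the replete libraries of 48 h lay outside that range, at -12.1 to -10.3. There the replete libraries of 6 h lay at -39.2 to -30.6 and those of 24 h at 3.6 to 6.1. Whether the cells or their handling set the 12 h libraries apart was not tested.

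Between 24 and 48 h the transcript levels of most genes tested changed in replete cells, mostly by small amounts. Of 9647 genes with at least 1 FPKM in 3 or more of the 36 libraries, 5586 (57.9%) passed an adjusted p of 0.05 (limma on log2(FPKM + 1), all 36 libraries, Benjamini-Hochberg adjustment). Levels rose for 3164 genes (32.8%) and fell for 2422 (25.1%). The median change was 1.37-fold among the rises and 1.38-fold among the falls, with quartiles of 1.24- and 1.58-fold and of 1.25- and 1.57-fold. At least 2-fold changes were found for 200 rises (2.07%) and 149 falls (1.54%), and at least 4-fold changes for 2 rises and 7 falls. These folds, and each 2-fold limit below, are of FPKM + 1, which understates the fold in FPKM where levels are low. The replete libraries of both times did not overlap for 63.6% of genes tested. FPKM is a share of the library, and which direction held more changes depended on the scaling. Of all calls, 2830 were rises and 3116 falls after median-ratio centring, and 3047 and 2947 after quantile normalization. For changes of at least 2-fold, centring on the median log2 ratio of each library gave 153 such rises and 198 such falls, while quantile normalization gave 214 and 195. Centring moves the step of every gene by the same amount, here downward, so keeping all 149 falls was largely set in advance. It kept 153 of the 200 rises. Quantile normalization kept 185 of the 200 rises and 140 of the 149 falls.

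**Figure D1:**
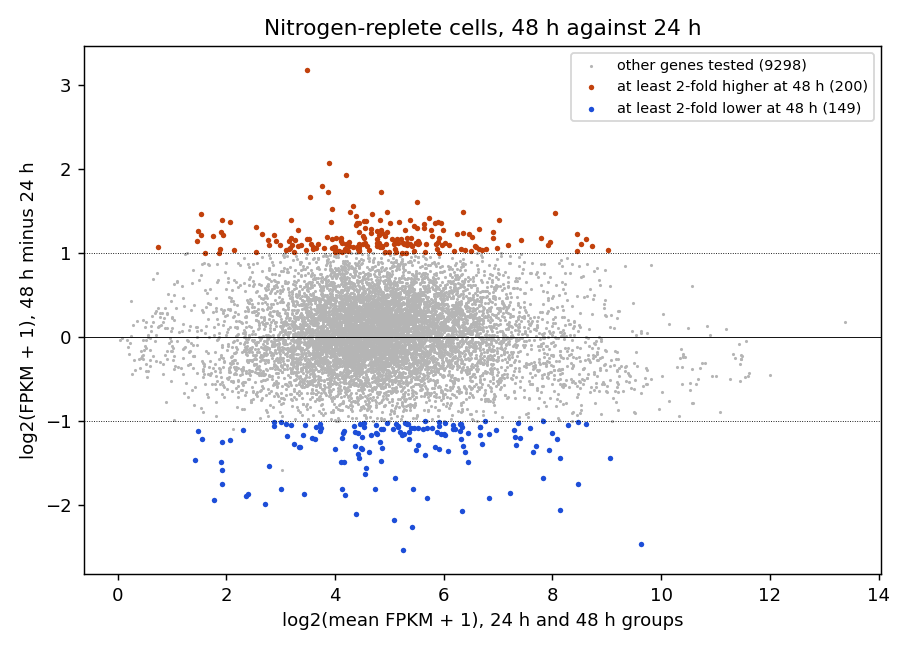
Change from 24 to 48 h in replete medium (y axis, log2(FPKM + 1)) against the level (x axis, log2 of the mean FPKM + 1 of both groups), 1 point per gene tested. The 200 genes at least 2-fold higher and the 149 at least 2-fold lower at 48 h are coloured, and none of the 49 genes above 1000 FPKM is among them.

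The share of genes that passed went from 14.6% below 1 FPKM to 47.1% at 1 to 10, 58.5% at 10 to 100, 69.9% at 100 to 1000 and 75.5% at 1000 FPKM or more. Large changes followed no such order. Over all genes tested, 2.07% rose and 1.54% fell at least 2-fold. Of the 49 genes with a mean of 1000 FPKM or more over the 6 libraries, 0 did, too few genes to tell 0 from those shares. Their median log2 change was -0.33. Of 977 genes of 100 to 1000 FPKM, 18 (1.84%) rose and 30 (3.07%) fell at least 2-fold. The numbers were 148 (2.03%) and 92 (1.26%) of 7301 genes of 10 to 100 FPKM, and 33 (2.67%) and 27 (2.18%) of 1238 genes of 1 to 10 FPKM. The 100 most abundant transcripts of a library made up 25.6% to 26.4% of the summed FPKM at 24 h and 22.3% to 22.4% at 48 h, and these ranges did not overlap. The 200 rising genes made up 0.906% to 1.05% of the sum at 24 h and 2.36% to 2.37% at 48 h. The 149 falling genes made up 2.44% to 2.77% at 24 h and 1.02% to 1.07% at 48 h. These shares describe genes chosen by the same difference. The median locus length was 2176 bp in the rising and 1712 bp in the falling set, against 2135 bp over all genes tested.

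The files pair 1 gene model with a symbol and leave the others as identifiers, so genes are given by identifier and position, and no pathway is assigned. Positions are counted from 1 on the scaffolds that the files name, without a stated build, and exons and strand were not analysed here. The largest rise was of scaffold00349.g9905 (scaffold00349, 51726 to 53866). Its 24 h libraries held 0.709, 1.41 and 1.60 FPKM and its 48 h libraries 14.7, 21.8 and 21.2 FPKM. The change was 3.18 on the log2(FPKM + 1) scale (SE 0.30; limma, adjusted p = 2.69e-10), a scale that understates the fold where the 24 h level is near 1 FPKM. This gene had been at 1.98 FPKM at 6 h and at 31.0 ± 14.5 FPKM (SD, n = 3) at 12 h. It was thus low at 6 and 24 h and high at 12 and 48 h, and 2 other genes of the 200 were also at least 2-fold higher at 12 than at 6 h: its neighbour scaffold00349.g9904 (45796 to 48906) and scaffold00289.g8308 (scaffold00289, 48116 to 50390). These 2, named after their values were seen, stayed low, at 0.0715 and 0.688 FPKM at 24 h and 1.27 and 2.86 FPKM at 48 h.

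The other 9 of the 10 largest rises had a 12 h level below that of 6 h, as did many genes: the median log2 change from 6 to 12 h over all genes tested was -0.68, and 63.7% of them had their lowest replete mean at 12 h. Transcripts of scaffold00185.g5904 (scaffold00185, 458230 to 459184) stood at 4.98, 4.48 and 4.69 FPKM at 24 h and at 22.8, 20.8 and 25.3 FPKM at 48 h. They rose by 2.07 on the log2 scale (SE 0.12; limma, adjusted p = 4.95e-14), after 43.5, 29.9, 14.2 and 4.12 FPKM at 3, 4, 6 and 12 h. The level thus fell at each sampling to 12 h, was still low at 24 h and was higher at 48 h. That its 24 and 48 h libraries did not overlap was a condition of its choice. For scaffold00066.g2236 (scaffold00066, 168755 to 172501) the 24 h libraries held 12.2, 12.6 and 12.3 FPKM and the 48 h libraries 39.8, 44.2 and 45.5 FPKM. It had stood at 69.8 FPKM at 3 h and at 4.05 FPKM at 12 h, and rose by 1.72 (SE 0.088; limma, adjusted p = 2.12e-15). For scaffold00245.g6520 (scaffold00245, 440895 to 442869) the levels were 21.1, 18.8 and 24.9 FPKM at 24 h and 65.1, 68.5 and 68.9 FPKM at 48 h. The 48 h mean of 67.5 FPKM lay near the 76.2 ± 8.50 FPKM (SD, n = 3) of 6 h, with 13.9 FPKM at 12 h between.

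In the remaining 6 of these rises the 24 and 48 h libraries did not overlap either, which the choice of genes required. Transcripts of scaffold00245.g6398 (scaffold00245, 10076 to 10673) went from 6.69 ± 1.85 to 28.0 ± 3.51 FPKM (SD, n = 3 each). Those of scaffold00271.g7913 (scaffold00271, 27697 to 28731) went from 5.06 ± 0.586 to 19.9 ± 1.32 FPKM, and those of scaffold00324.g9091 (scaffold00324, 738499 to 738920) from 5.79 ± 1.35 to 21.4 ± 4.70 FPKM. The gene scaffold00277.g8255 (scaffold00277, 112477 to 119961) rose from 4.61 ± 0.986 to 16.6 ± 1.17 FPKM, scaffold00026.g1480 (scaffold00026, 1354666 to 1355320) from 9.28 ± 1.48 to 29.2 ± 3.11 FPKM and scaffold00009.g682 (scaffold00009, 938434 to 942623) from 6.95 ± 0.593 to 21.7 ± 1.02 FPKM. Their log2 changes ran from 1.93 (SE 0.24; limma, adjusted p = 5.71e-08) in the first to 1.52 (SE 0.092; adjusted p = 5.61e-14) in the last. Each was at 20 FPKM or less at 6 h and at 6 FPKM or less at 12 h.

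**Figure D2:**
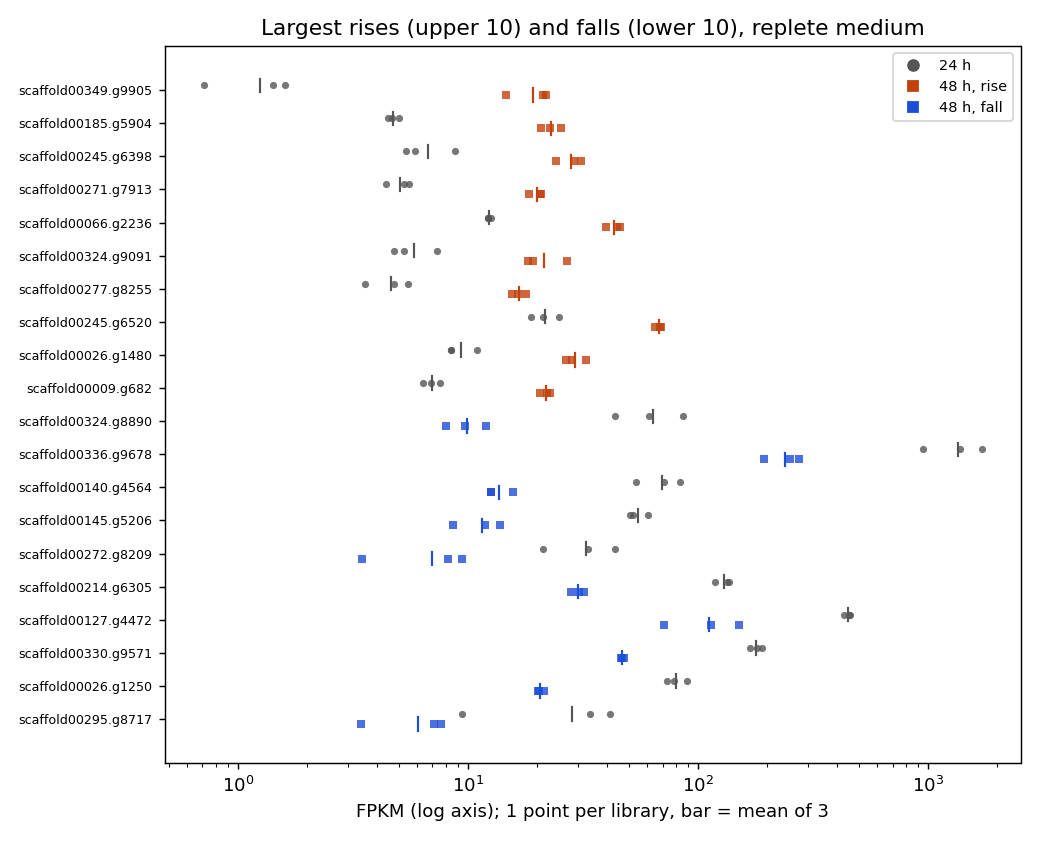
FPKM (x axis, log scale) of the 10 genes with the largest rises and the 10 with the largest falls from 24 h (grey circles) to 48 h (coloured squares) in replete medium, 1 point per library, with a bar at the mean of 3. Genes whose 24 h and 48 h libraries overlapped could not be listed, so the points are separate in every row by that rule. The gap is smallest in scaffold00295.g8717, whose lowest 24 h library held 9.43 FPKM and whose highest 48 h library held 7.61 FPKM.

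Of the 10 largest falls, 6 were of genes whose level had been more than 10-fold higher at 12 h than at 6 h. The most abundant was scaffold00336.g9678 (scaffold00336, 1 to 439), a short model at the start of its scaffold. It stood at 1370, 1707 and 951 FPKM in the 24 h libraries and at 275, 194 and 250.5 FPKM in the 48 h libraries. The fall was -2.46 on the log2 scale (SE 0.24; limma, adjusted p = 7.64e-10). Before that it had stood at 1067 ± 291 FPKM at 6 h and at 15874 ± 2686 FPKM at 12 h (SD, n = 3 each), so its 24 h level was already back near that of 6 h and the 48 h level lay below both. The largest fall, of scaffold00324.g8890 (scaffold00324, 50477 to 57491), took a like course, with 52.1 FPKM at 6 h, 714 FPKM at 12 h, 63.8 ± 21.4 FPKM at 24 h and 9.90 ± 1.99 FPKM at 48 h (SD, n = 3 each). Its libraries held 61.4, 86.3 and 43.7 FPKM at 24 h and 12.0, 8.04 and 9.66 FPKM at 48 h, a log2 change of -2.53 (SE 0.22; limma, adjusted p = 6.75e-11).

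The other 4 of these 6 were scaffold00127.g4472 (scaffold00127, 915300 to 917694), scaffold00145.g5206 (scaffold00145, 1090803 to 1096579), scaffold00272.g8209 (scaffold00272, 22427 to 22811) and scaffold00295.g8717 (scaffold00295, 1136970 to 1137324). Transcripts of scaffold00127.g4472 went from 448 ± 13.3 to 112 ± 39.5 FPKM and those of scaffold00145.g5206 from 54.5 ± 5.20 to 11.4 ± 2.62 FPKM (SD, n = 3 each). Those of scaffold00272.g8209 went from 32.7 ± 11.3 to 7.00 ± 3.15 FPKM. In scaffold00295.g8717 the 24 h libraries spread most, at 9.43, 41.5 and 33.9 FPKM against 3.43, 7.61 and 7.13 FPKM at 48 h. Its log2 change of -1.88 (SE 0.57; limma, adjusted p = 0.00589) became -2.51 without 24 h replicate 1 and -1.50 (adjusted p = 0.0476) without 24 h replicate 2. It had the highest adjusted p of the 10 falls.

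The remaining 4 large falls were of genes that stood highest at 24 h among the 6 replete times. Transcripts of scaffold00140.g4564 (scaffold00140, 167336 to 169650) stood at 13.6 FPKM at 3 h, 20.4 FPKM at 6 h and 36.6 FPKM at 12 h. The 24 h libraries held 53.8, 83.5 and 70.9 FPKM and the 48 h libraries 12.6, 12.6 and 15.7 FPKM, a log2 change of -2.25 (SE 0.15; limma, adjusted p = 3.45e-13). At 48 h the mean was back at the 13.6 FPKM of 3 h. For scaffold00330.g9571 (scaffold00330, 1118834 to 1119533) the levels were 168, 180.03 and 190 FPKM at 24 h and 46.2, 46.7 and 47.7 FPKM at 48 h. Its mean was higher at each sampling up to then, with 24.1 FPKM at 3 h and 112 FPKM at 12 h, and it fell by 1.91 from 24 to 48 h (SE 0.12; limma, adjusted p = 4.95e-14). For scaffold00026.g1250 (scaffold00026, 705694 to 706810) the means of 3, 6, 12, 24 and 48 h were 12.5, 28.4, 40.2, 80.3 and 20.6 FPKM. The gene scaffold00214.g6305 (scaffold00214, 781944 to 785338) stood at 129 ± 9.65 FPKM at 24 h and 30.03 ± 2.01 FPKM at 48 h (SD, n = 3 each), after 54.6 FPKM at 3 h, 23.4 FPKM at 6 h and 41.8 FPKM at 12 h.

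The earlier course was then read for all genes with large changes. The step from 6 to 12 h shares no library with the step from 24 to 48 h, although both rest on 1 variance per gene. Of the 200 genes at least 2-fold higher at 48 than at 24 h, 155 (77.5%) were at least 2-fold lower at 12 than at 6 h in replete medium, where 31.8% of all genes tested were. Among the 149 falls of that size, 56 (37.6%) were at least 2-fold higher at 12 than at 6 h, where 10.8% of all genes tested were. In deprived cells the step from 6 to 12 h was at least 2-fold down for 153 of the 200 (76.5%, against 26.4% of all genes) and at least 2-fold up for 60 of the 149 (40.3%, against 10.6%). The reverse pairing in replete cells was found for 3 genes of each set. In the falling set these were scaffold00026.g1018 (scaffold00026, 30996 to 34330), scaffold00170.g5345 (scaffold00170, 1372 to 1831) and scaffold00185.g5846 (scaffold00185, 275582 to 281233), named after their values were seen. Across all 9647 genes Pearson's r between the replete steps from 6 to 12 h and from 24 to 48 h was -0.508 and Spearman's rho -0.555. With the deprived step from 6 to 12 h in its place, from other cultures, r was -0.464 and rho -0.459. Within deprived medium the relation of the same steps was weaker, with r of -0.177 and rho of -0.181. These correlations are across genes that share libraries, and no p is given.

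Medians give the levels of the sets once split by their step from 6 to 12 h. The 155 rising genes with a drop at 12 h had medians of 41.3, 9.58, 15.96 and 37.3 FPKM at 6, 12, 24 and 48 h. The 45 other rising genes had medians of 21.8, 13.3, 13.5 and 30.3 FPKM at the same times. The 56 falling genes at least 2-fold higher at 12 than at 6 h had medians of 15.98, 125, 34.4 and 11.6 FPKM. Of these 56, 49 had their highest replete mean at 12 h and 7 at 24 h. The 93 other falling genes had medians of 26.3, 36.4, 65.7 and 25.2 FPKM. Over all genes tested the medians were 27.6, 18.7, 25.7 and 26.8 FPKM. The values of all 4 times chose these sets, so their medians at 6, 12, 24 and 48 h are a description only.

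**Figure D3:**
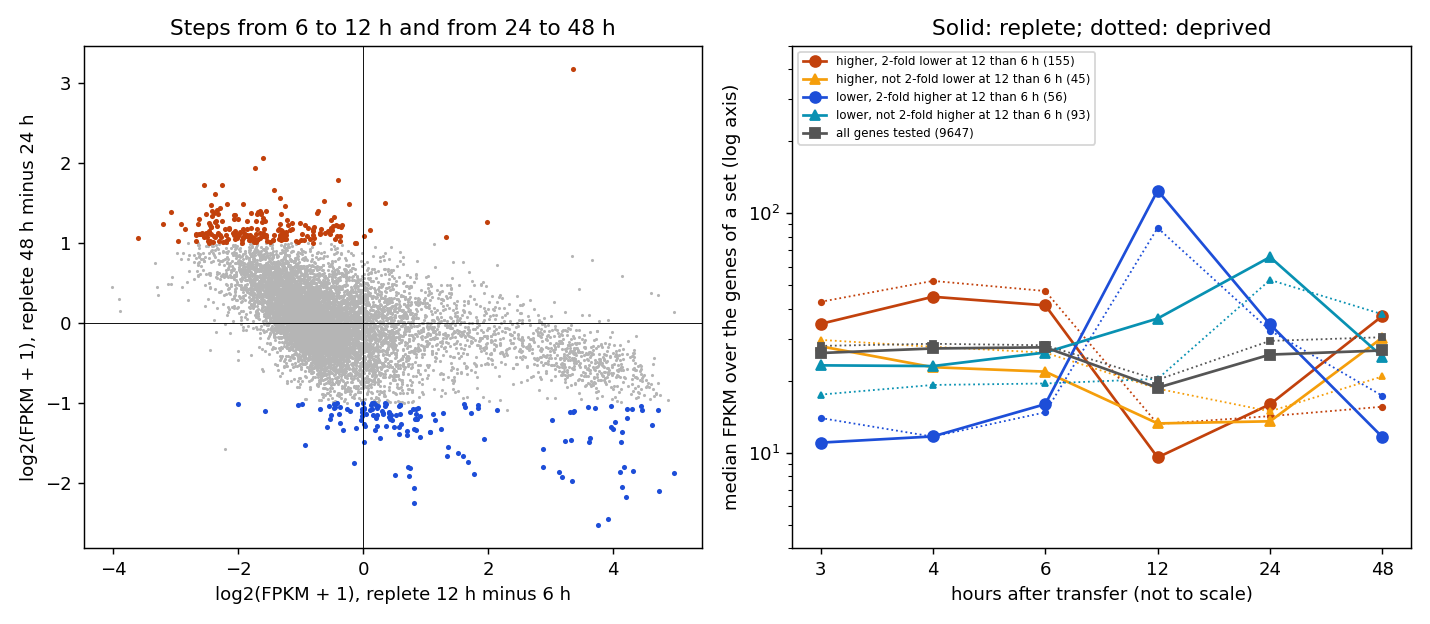
Left, change from 24 to 48 h against change from 6 to 12 h in replete medium (both log2(FPKM + 1)), 1 point per gene tested, with genes at least 2-fold higher (orange) or lower (blue) at 48 h. Right, median FPKM (log axis) by sampling time for all 9647 genes and for the rising and falling sets split by their step at 12 h, in replete (solid) and deprived (dotted) medium. The 155 rising genes, chosen by their replete levels, reach a median of 37.3 FPKM in replete and 15.6 FPKM in deprived cells at 48 h.

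Fewer genes passed in deprived cells over the same day. Between 24 and 48 h in nitrogen-deprived medium 3126 genes (32.4%) passed, 1852 (19.2%) as rises and 1274 (13.2%) as falls, and 32 (0.332%) rose and 70 (0.726%) fell at least 2-fold. The deprived libraries of both times did not overlap for 46.4% of genes. The difference of the steps was tested in the same fit, and 3246 genes (33.6%) passed, 1733 (18%) because the replete step was the more positive and 1513 (15.7%) because it was the more negative. The larger number changed sides with the scaling, to 1846 and 1918 after median-ratio centring and 1944 and 2091 after quantile normalization. Differences of 2-fold or more numbered 313 (3.24%) on the positive and 76 (0.788%) on the negative side. The steps share no library. Across genes r between them was 0.38 and rho 0.379. Of all genes tested, 1156 rose and 586 fell in both media, while 326 rose in replete and fell in deprived cells and 140 fell in replete and rose in deprived cells.

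The genes with large replete changes were then read in deprived cells. Of the 200 genes at least 2-fold higher in replete cells, 80 (40%) rose in deprived cells, where 19.2% of all genes did, and 40 (20%) fell there, where 13.2% of all genes did, and the median deprived step was 0.13 on the log2 scale, against 0.04 over all genes. Their median level in deprived cells was 14.5 FPKM at 24 h and 16.4 FPKM at 48 h, while in replete cells it went from 15.3 to 36.5 FPKM. The replete values chose these genes and the deprived values did not, so these medians do not compare the media. Of the 149 genes at least 2-fold lower in replete cells, 87 (58.4%) fell in deprived cells, against the same 13.2%, and 1 rose, scaffold00295.g8378 (scaffold00295, 158172 to 160411), named after its values were seen. Their median deprived step was -0.43. The 56 at least 2-fold higher at 12 than at 6 h in replete cells had a median deprived step of -0.63, and 38 of them fell. For the difference of the steps, 170 of the rising genes passed as more positive and 104 of the falling genes as more negative in replete cells, but the replete step that chose them enters that difference.

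**Figure D4:**
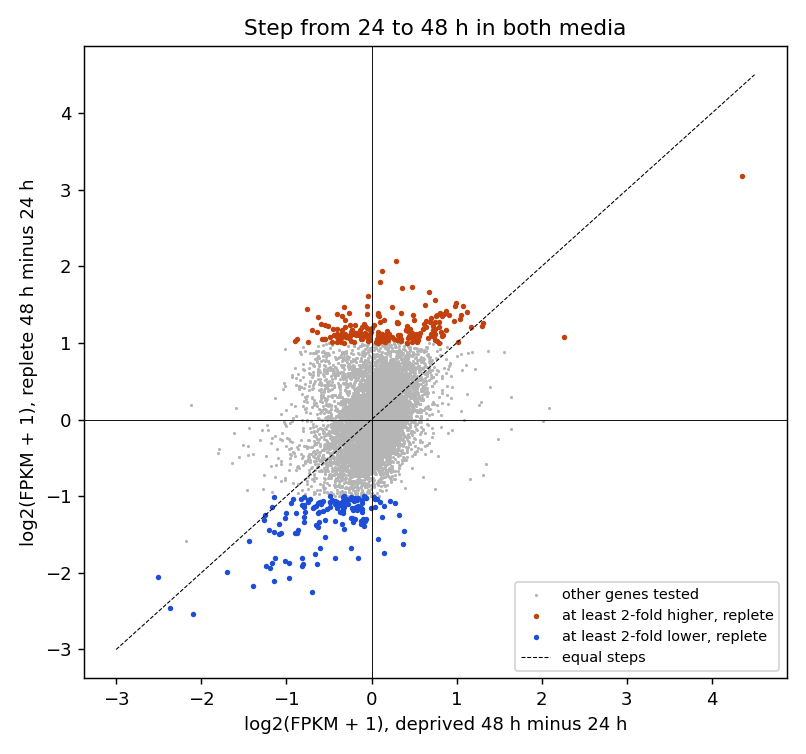
Change from 24 to 48 h in replete (y axis) against deprived medium (x axis), both on log2(FPKM + 1), 1 point per gene tested, with the dashed line at equal steps. The coloured genes were chosen for their replete step, so that most of the 200 rising genes lie above the line follows largely from the choice. Their median deprived step was 0.13, and 80 of them passed as rises and 40 as falls in deprived cells. The falling genes spread to the left, with a median deprived step of -0.43.

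The largest differences of the steps included genes whose levels moved in opposite directions in the media. Transcripts of scaffold00145.g5153 (scaffold00145, 887188 to 897966) stood at 10.4, 9.17 and 11.1 FPKM at 24 h and 28.9, 28.0 and 31.1 FPKM at 48 h in replete cells. In deprived cells they stood at 7.54, 7.62 and 7.46 FPKM and then at 4.46, 4.16 and 3.52 FPKM. Both steps passed, at 1.44 (SE 0.074; limma, adjusted p = 2.24e-15) and -0.76 (adjusted p = 3.52e-09), and the medium in which the level was higher was the same at both times. The gene scaffold00140.g4714 (scaffold00140, 540450 to 542383) rose from 10.99 ± 2.73 to 28.7 ± 0.343 FPKM in replete cells and fell from 5.88 ± 0.710 to 3.44 ± 0.403 FPKM in deprived cells (SD, n = 3 each). Transcripts of scaffold00026.g1216 (scaffold00026, 598903 to 599420) rose from 5.91 ± 1.52 to 11.9 ± 0.904 FPKM and fell from 4.18 ± 0.0310 to 1.76 ± 1.15 FPKM.

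In the other direction, scaffold00214.g6293 (scaffold00214, 718944 to 720038) fell in replete cells from 2.45, 1.75 and 1.90 FPKM to 0.619, 0.584 and 1.41 FPKM, while in deprived cells it rose from 97.4 ± 6.00 to 243 ± 14.6 FPKM (SD, n = 3 each). The replete levels are near 1 FPKM, where the scale holds the change down to -0.72 (SE 0.15; limma, adjusted p = 1.36e-04). For scaffold00069.g2456 (scaffold00069, 642714 to 644318) the replete libraries held 50.2, 36.5 and 19.0 FPKM at 24 h and 10.8, 10.4 and 8.73 FPKM at 48 h. The deprived libraries of both times held 1.24 FPKM or less. The gene scaffold00111.g3924 (scaffold00111, 22597 to 23031) fell from 4.86 ± 1.74 to 0.752 ± 0.551 FPKM in replete cells and stood at 14.8 ± 2.91 and 16.5 ± 2.62 FPKM in deprived cells (SD, n = 3 each). For scaffold00271.g8087 (scaffold00271, 524061 to 524275) the replete step of -0.58 did not pass (SE 0.53; limma, adjusted p = 0.365), and it passed at 0.0120 with only the 6 replete libraries in the model. Its deprived libraries ran from 9.43 to 49.2 FPKM at 24 h and from 52.3 to 87.7 FPKM at 48 h. That deprived step of 1.35 did not pass either (SE 0.53; limma, adjusted p = 0.0523).

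**Figure D5:**
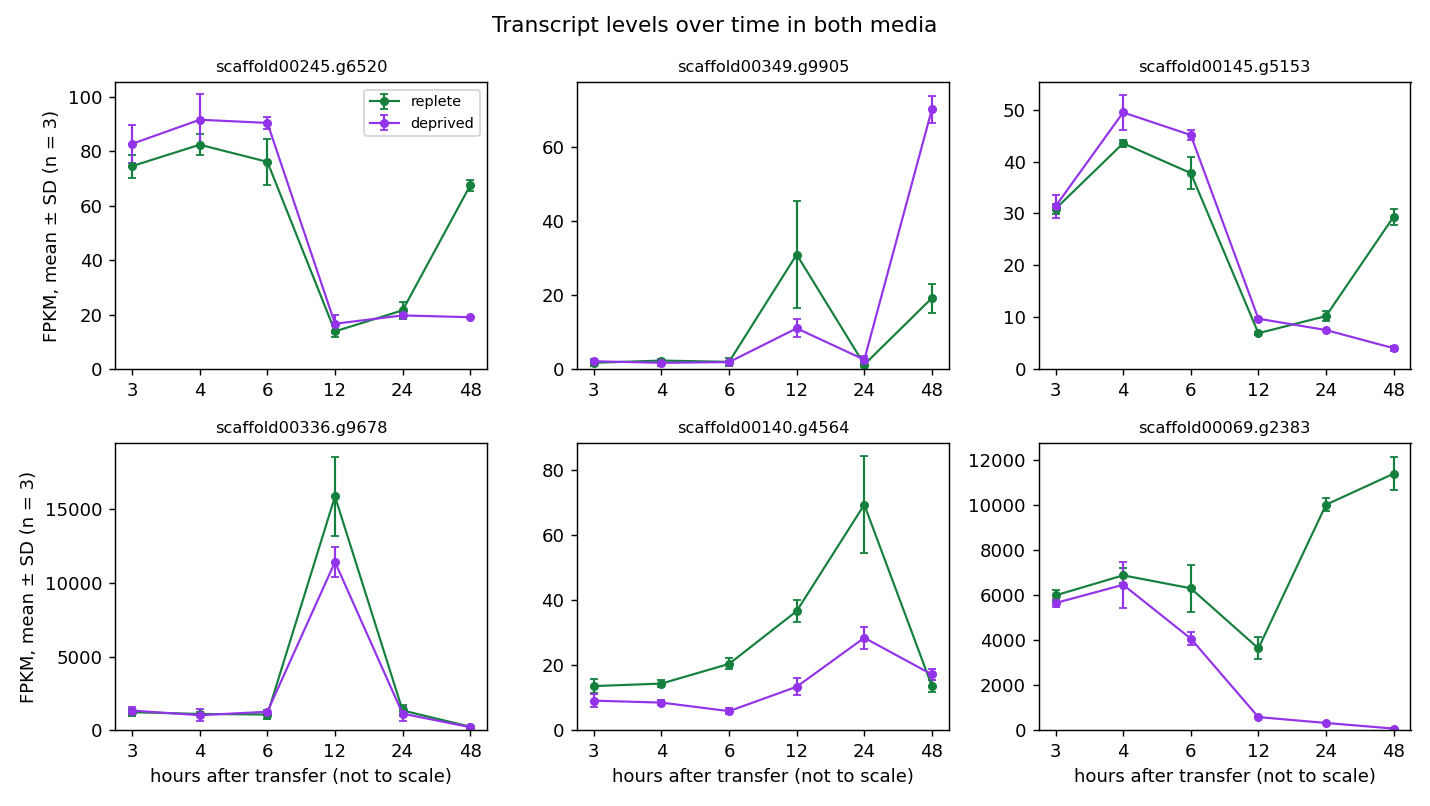
FPKM by sampling time in replete (green) and deprived (purple) medium for 6 of the genes described, as mean and SD of 3 libraries. At 48 h scaffold00245.g6520 and scaffold00145.g5153 were higher in replete than in deprived cells, at 67.5 and 29.4 FPKM against 19.1 and 4.05 FPKM, while scaffold00336.g9678 was low in both media after its 12 h peak.

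Some genes with large changes lay next to each other. Of the 200 rising genes, 29 (14.5%) had a directly neighbouring gene model in the same set, and of the 149 falling genes 20 (13.4%) had one. The share that position alone would give was not tested. The libraries carry no strand information, so reads of overlapping models cannot be assigned to either one. The longest runs had 4 genes. On scaffold00324 the run of scaffold00324.g8890 to scaffold00324.g8893 (50477 to 60189) fell by 1.87 to 2.53 on the log2 scale. Its last 3 genes, named after their values were seen, had means of 4.45, 7.31 and 9.51 FPKM at 24 h and 0.421, 1.21 and 1.54 FPKM at 48 h. They had stood at 43.3, 84.3 and 110 FPKM at 12 h, so all 4 shared the peak. All 4 also fell in deprived cells between 24 and 48 h, by 1.16 to 2.10 on the log2 scale. On scaffold00245 the run of scaffold00245.g6520 to scaffold00245.g6523 (440895 to 447999) rose by 1.03 to 1.61. Its last 3 genes went from 13.2, 5.44 and 7.52 FPKM to 28.0, 12.5 and 21.0 FPKM, after 10.9, 4.51 and 2.68 FPKM at 12 h. In deprived cells 0 of these 4 genes passed between 24 and 48 h, with adjusted p from 0.395 to 0.837 (limma), where 32.4% of all genes passed. These 4 are too few to tell 0 from that share.

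The most abundant transcripts moved little. By mean over the 6 libraries the first was scaffold00069.g2383 (scaffold00069, 445093 to 446789), with 10135, 9668 and 10220.0 FPKM at 24 h and 10564, 11581 and 12010 FPKM at 48 h. Its replete step of 0.18 did not pass (SE 0.11; limma, adjusted p = 0.155), although the libraries of the times did not overlap, and the deprived step of -2.12 (adjusted p = 6.71e-15) did. The next 3 fell by less than 0.5 on the log2 scale. Transcripts of scaffold00214.g6067 (scaffold00214, 1086 to 2040) went from 4744 ± 376 to 3476 ± 148 FPKM, those of scaffold00007.g240 (scaffold00007, 625972 to 627453) from 3597 ± 239.96 to 2671 ± 71.1 FPKM and those of scaffold00182.g5628 (scaffold00182, 740646 to 742471) from 3600.4 ± 482 to 2593 ± 115 FPKM (SD, n = 3 each). Their log2 changes were -0.45 (SE 0.091; limma, adjusted p = 1.17e-04), -0.43 (SE 0.089; adjusted p = 1.65e-04) and -0.47 (SE 0.11; adjusted p = 8.17e-04). With quantile normalization, which sets equal ranks to equal values, the first of these was 0.00 and the second -0.17, and neither passed. The fifth, scaffold00009.g903 (scaffold00009, 1584496 to 1586773), overlapped between the times at 3078 ± 421 and 2956 ± 107 FPKM, a log2 change of -0.05 (SE 0.093; limma, adjusted p = 0.662) that turned to 0.82 (adjusted p = 3.29e-07) under quantile normalization.

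The only named model, isotig00738.DGAT1A (isotig00738, 1 to 2030), is by its symbol a diacylglycerol acyltransferase, an enzyme that adds the last fatty acid in triacylglycerol synthesis. In replete cells its libraries held 21.2, 20.3 and 24.0 FPKM at 24 h and 27.3, 26.0 and 29.6 FPKM at 48 h, without overlap. The rise was small, 0.33 on the log2 scale (SE 0.069; limma, adjusted p = 1.57e-04), and the 48 h mean lay within the range of the earlier replete means, with 18.8 FPKM at 6 h as the lowest and 30.3 FPKM at 3 h as the highest. Deprived libraries held 56.3, 54.6 and 56.7 FPKM at 24 h and 67.7, 66.2 and 56.9 FPKM at 48 h, a step of 0.18 (adjusted p = 0.0435). The difference of the steps was 0.15 (SE 0.097; limma, adjusted p = 0.245) and did not pass.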

How the data were processed

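Per the labels' protocols, poly(A) RNA from total RNA of whole cells was fragmented, primed with random hexamers and sequenced without strand information as read pairs. A label field names nuclear RNA instead. The authors deposited FPKM per gene model. The submitters' processing notes name TopHat2 2.0.4 and Cufflinks 2.0.2. A genome build was not given in these sources. Values of single-library files and of the series table differed in 0 cases, and 0 of the tested identifiers matched the reference table of 160 organelle genes. FPKM is a share of each library, so values of different genes are not free of each other, and fragments of near-identical genes may be split between them.

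FPKM was transformed to log2(FPKM + 1). A mean for each of 12 groups was fitted over all 36 libraries with limma 3.58.1 in R 4.3.3 (moderated variance with a trended prior), tested on simulated data, with Benjamini-Hochberg adjustment over 9647 genes. Tests are two-sided. An exact comparison of 3 with 3 libraries cannot give p below 0.1. Libraries of 24 and 48 h entered as independent, though whether a replicate number follows 1 culture is not stated. For relative depth, each library's scale was chosen to turn low FPKM values into whole fragments. Of 2227 values from 95 genes, 97.5% lay within 0.1 of a whole number, which the choice of scales favours.

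Named were the 10 largest rises and falls among genes that passed, did not overlap and reached 10 FPKM at either time, the 5 most abundant genes, up to 4 genes in each direction with the largest difference of the steps among genes that passed for it, did not overlap in replete cells and reached 10 FPKM, and any gene with a symbol. No neighbours were added, since none of the 20 lay side by side. Other names are stated as chosen after their values were seen. Libraries, tests and rules were chosen with earlier results of these data known. Alternatives covered scaling, pseudocount, filter, libraries in the model, replicate number as a block, variance prior and each library left out.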

Additional observations from a re-analysis of the deposited data

Results flagged for a closer look

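The following results differed between media by the test of the difference itself, the replete less the deprived step from 24 to 48 h (limma, Benjamini-Hochberg adjusted p under 0.05), which 3246 genes passed. Of the 10 largest replete rises all passed. The step was more positive in replete cells by 1.78 on the log2 scale for scaffold00185.g5904, 1.80 for scaffold00245.g6398, 1.69 for scaffold00271.g7913, 1.24 for scaffold00066.g2236 and 1.36 for scaffold00324.g9091. It was more positive by 0.99 for scaffold00277.g8255, 1.65 for scaffold00245.g6520, 0.81 for scaffold00026.g1480 and 0.52 for scaffold00009.g682. For scaffold00349.g9905 the difference was -1.18, since it rose further in deprived cells, from 2.57 ± 1.06 to 70.2 ± 3.61 FPKM (SD, n = 3 each). Its neighbour scaffold00349.g9904, named after its values were seen, rose in deprived cells from 0.153 to 4.55 FPKM.

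Of the 10 largest replete falls 5 passed, all with the deeper fall in replete cells: -1.56 for scaffold00140.g4564, -0.79 for scaffold00145.g5206, -1.09 for scaffold00214.g6305, -1.09 for scaffold00330.g9571 and -0.67 for scaffold00026.g1250. Of these, 4 are the genes that stood highest at 24 h. The replete step that chose these 20 genes enters their differences, which are given as a description.

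Among the abundant genes the difference was 2.31 for scaffold00069.g2383 and 0.48 for scaffold00182.g5628. The genes chosen for this difference were, on the positive side, scaffold00069.g2383 again, scaffold00145.g5153 at 2.20, scaffold00140.g4714 at 1.97 and scaffold00026.g1216 at 1.94. On the negative side they were scaffold00214.g6293 at -2.03, scaffold00069.g2456 at -1.99, scaffold00271.g8087 at -1.92 and scaffold00111.g3924 at -1.89. For scaffold00271.g8087 the SE was 0.76 and the adjusted p 0.0487 (limma), close to the threshold.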

How the results depend on the processing

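The number of genes that changed between 24 and 48 h in replete cells was 5496 to 5994 under the alternatives of scaling, pseudocount, filter, libraries in the model and variance prior, against 5586. Without the 12 h libraries it was 5836, and with replicate number as a replicate block 5828, or 5893 with the replicate block and only the 6 libraries compared. Same-numbered libraries of 24 and 48 h correlated across genes at -0.034, 0.126 and -0.027 in their deviations from the group mean, and 1 of 3 correlated best with its own number, so the numbers were not taken as pairs. Leaving out 1 library gave 4978 to 5251 genes, 152 to 252 at least 2-fold rises and 138 to 191 at least 2-fold falls. The lowest number of rises came without 24 h replicate 2 and the highest without 24 h replicate 3. A pseudocount of 0.1 gave 271 rises and 194 falls. For the difference of the steps, leaving out 1 library gave 2835 to 3195 genes against 3246, and the replicate block gave 3569. None of these counts, of genes that passed, of 2-fold rises and falls and of differences of the steps, moved by over 1.5 times. The counts for deprived cells, for 2-fold differences of the steps and for the step from 6 to 12 h were not rerun under the alternatives. Of the named genes, scaffold00214.g6067 and scaffold00007.g240 no longer passed with quantile normalization, and scaffold00271.g8087 passed with only the libraries compared in the model. A called or newly called change turned direction in 1 gene, scaffold00009.g903, to 0.82 with quantile normalization (limma, adjusted p = 3.29e-07, where it had not passed), and the cause was not tested. Low depth limits genes near 1 FPKM, where 1 fragment is a large step.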
